A study of Mus musculus with 20 samples.

Results

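The nuclear receptor genes *Ppara*, *Ppard*, *Rxra*, *Hnf4a*, *Nr1h4*, *Nr0b2*, *Nr1i2*, *Nr1i3*, *Nr5a2* and *Esrra* were followed in mouse liver by RNA-seq. They were taken by gene symbol, and all 10 were found among the 50559 genes of the count table. RNA came from 20 livers of Cideb fl/fl mice, 5 in each of 4 groups. WT livers had received AAV-TBG-GFP and KO livers AAV-TBG-Cre, in which the hepatocyte promoter TBG drives the recombinase, so that other liver cells keep *Cideb* and the controls carry the floxed allele too. Mice were fed a Western diet (WD) or CDA-HFD, a high-fat diet that lacks choline and supplies protein as L-amino acids, for 3 months according to the labels, while the text of the study gives a longer time on WD.

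Nuclear receptors are transcription factors, many of them switched by small lipophilic ligands. PPARα, the product of *Ppara*, is activated by fatty acids and drives fatty acid oxidation genes in hepatocytes, and PPARδ, from *Ppard*, is its broadly expressed relative. RXRα, from *Rxra*, is the shared dimer partner of the PPARs, FXR, PXR and CAR, whereas HNF4α, from *Hnf4a*, binds as a homodimer and maintains hepatocyte identity. FXR, from *Nr1h4*, senses bile acids and induces SHP, from *Nr0b2*, a receptor without a DNA-binding domain that represses bile acid synthesis in part through LRH-1, from *Nr5a2*. PXR and CAR, from *Nr1i2* and *Nr1i3*, respond to foreign compounds and induce cytochromes P450, and ERRα, from *Esrra*, is an orphan receptor that drives genes of mitochondrial respiration together with PGC-1 coactivators.

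Promoter windows are shown for 4 of the receptors, *Ppara* as the most abundant on WD and 3 whose windows held a match to AGGTCA. Many nuclear receptors bind this site. Each window runs from 250 bases before to 50 bases after a start site in RefSeq (GRCm38.p6) and is printed 5′ to 3′. Capitals mark matches to AGGTCA on either strand. The windows are chr15:85735526-85735825 (plus strand) for *Ppara*, chr2:27709042-27709341 (plus strand) for *Rxra*, chr10:89506609-89506908 (minus strand) for *Nr1h4* and chr1:136960399-136960698 (minus strand) for *Nr5a2*.
Ppara: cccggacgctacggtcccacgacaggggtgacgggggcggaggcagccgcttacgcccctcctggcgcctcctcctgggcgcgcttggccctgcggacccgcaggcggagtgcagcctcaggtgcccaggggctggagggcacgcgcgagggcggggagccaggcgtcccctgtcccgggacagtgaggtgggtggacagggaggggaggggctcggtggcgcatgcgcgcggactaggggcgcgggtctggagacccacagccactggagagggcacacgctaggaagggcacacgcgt
Rxra: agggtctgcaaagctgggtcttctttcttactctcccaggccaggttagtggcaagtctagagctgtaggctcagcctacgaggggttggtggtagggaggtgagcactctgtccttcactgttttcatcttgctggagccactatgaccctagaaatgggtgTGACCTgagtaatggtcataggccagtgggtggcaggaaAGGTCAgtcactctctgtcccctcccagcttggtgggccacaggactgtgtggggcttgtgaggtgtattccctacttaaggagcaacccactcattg
Nr1h4: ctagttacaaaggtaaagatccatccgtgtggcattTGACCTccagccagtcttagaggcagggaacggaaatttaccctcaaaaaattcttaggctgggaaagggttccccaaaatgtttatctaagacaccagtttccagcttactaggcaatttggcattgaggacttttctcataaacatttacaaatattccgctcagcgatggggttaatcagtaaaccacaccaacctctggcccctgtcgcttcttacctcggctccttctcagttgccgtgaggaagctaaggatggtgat
Nr5a2: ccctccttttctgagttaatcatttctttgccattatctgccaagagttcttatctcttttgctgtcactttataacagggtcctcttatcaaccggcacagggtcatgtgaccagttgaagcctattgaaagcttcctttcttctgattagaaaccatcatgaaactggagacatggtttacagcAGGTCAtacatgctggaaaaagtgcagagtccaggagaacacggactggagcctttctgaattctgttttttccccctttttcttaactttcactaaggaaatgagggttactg
The *Ppara* window held no match. The *Rxra* window, at one of its 2 listed start sites, held matches at -87 and -48 from the start site, the *Nr1h4* window at -214 and the *Nr5a2* window, also at one of 2 start sites, at -64. Of the 13 windows listed for the 10 receptors, 3 held AGGTCA, and among all 32851 windows of this length 16.3% held it. None of the 13 held the extended site TCAAGGTCA (0.423% of all windows), the direct repeat AGGTCANAGGTCA (0.0396%) or the inverted repeat AGGTCANTGACCT (0.00913%), all of which contain AGGTCA.

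Between 11697049 and 16827147 reads per liver lay on genes. Levels are given as CPM, the read count of a gene relative to the TMM-scaled size of its library (edgeR). *Cideb* had 6.07 ± 1.14 CPM without and 0.157 ± 0.167 CPM with Cre on WD, and 3.04 ± 0.663 and 0.163 ± 0.154 CPM on CDA-HFD (SD, n = 5 each). One library stood apart. On the first principal component of the 10 livers on CDA-HFD, with 61.4% of the variance, KO liver 5 lay at -40.9, among the WT livers (-62.8 to -7.33) and away from the other KO livers (42.6 to 65.5). Its *Cideb* count was low, as in the other KO livers. Results of the 10 receptors on CDA-HFD are given with and without it where it changes which of them passed. For other genes and lists they are given without it only in part. KO liver 5 was singled out after its values were seen, for lying with the WT livers. Leaving it out therefore tends to widen the differences between KO and WT livers on CDA-HFD, also in the interaction, and to lower their p-values. Counts and p-values without it are no independent evidence. All 14 hepatocyte markers were detected in every group, with summed levels of 65092 to 111430.0 CPM in WT and 74827 to 95098 CPM in KO livers on WD, and 33678 to 73327 and 37455 to 108010.0 CPM on CDA-HFD, where the lowest KO value was that of KO liver 5.

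*Ppara* had the most abundant RNA per length on WD. In CPM per kb of annotated exon, WT livers on WD had 248 ± 42.3 for *Ppara*, 148 ± 34.5 for *Hnf4a* and 112 ± 9.90 for *Rxra* (SD, n = 5 each). The bile acid and xenobiotic receptors followed, with 57.8 ± 5.19 for *Nr1h4*, 47.7 ± 3.89 for *Nr1i2*, 27.5 ± 7.35 for *Nr1i3*, 22.5 ± 8.37 for *Nr0b2* and 14.2 ± 2.37 for *Nr5a2*, and the lowest were *Esrra* with 8.19 ± 0.216 and *Ppard* with 1.44 ± 0.164 CPM per kb. Livers overlapped between the neighbors *Hnf4a* and *Rxra*, *Nr1h4* and *Nr1i2*, *Nr1i3* and *Nr0b2*, and *Nr0b2* and *Nr5a2*, and not between the other neighbors. On CDA-HFD *Hnf4a* and *Ppara* were close in WT livers, at 90.2 ± 16.9 and 89.2 ± 21.4 CPM per kb, and in KO livers they were at 162 ± 30.3 and 132 ± 33.0 CPM per kb.

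Gene positions in the GENCODE annotation of GRCm38 included chr15:85734983-85802819 (*Ppara*, plus strand), chr2:163506808-163572910 (*Hnf4a*, plus strand), chr2:27676440-27762957 (*Rxra*, plus strand), chr16:38248323-38294824 (*Nr1i2*, minus strand), chr1:171213970-171220701 (*Nr1i3*, plus strand) and chr19:6910977-6921813 (*Esrra*, minus strand). *Nr0b2* varied most between livers of a group, with a coefficient of variation of 76.5% in KO livers on WD, and *Esrra* in WT livers on WD varied least, with 2.64%, below its counting error of 4.77%. For *Nr1i3*, 74.9% of the exon bases lie in exons of *Tomm40l* on the opposite strand. Whether the counting used the strand is not given in the sources used here, so the counts of *Nr1i3* are uncertain. *Esrra* shared 1.66% of its exon bases with a gene on the opposite and 2.07% with one on the same strand, and the other 8 receptors shared none.

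**Figure D1:**
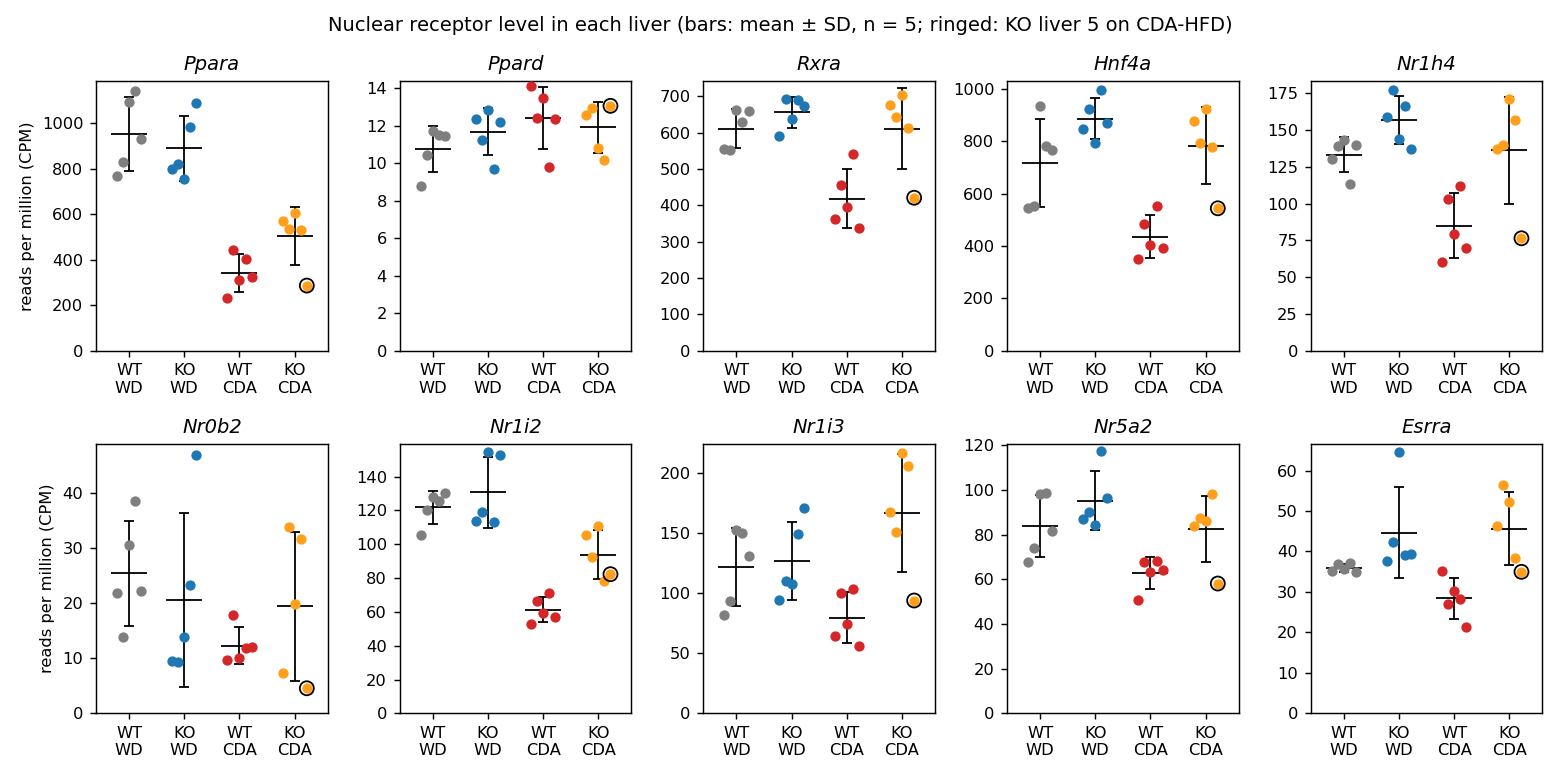
Level of each of the 10 receptors in CPM (y axis, from 0) in the 5 livers of each group, with bars for the mean and SD and KO liver 5 on CDA-HFD ringed. *Ppara* lay at 768 to 1141 CPM in WT livers on WD and at 232 to 441 CPM in WT livers on CDA-HFD, while *Ppard* kept a narrow range in all groups.

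The first comparison asked whether loss of *Cideb* in hepatocytes changed the receptors on WD. None of the 10 passed edgeR's quasi-likelihood F test at a Benjamini-Hochberg adjusted p below 0.05, 2 had an unadjusted p below 0.05, and DESeq2 called 0. Of all 15848 genes tested, 0.0126% passed higher and 0.0631% lower in KO livers, and 1702 had an unadjusted p below 0.05. The median log2 difference of the 10 receptors was 0.11, beside 0.01 over all genes.

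*Esrra* was at 35.2, 36.8, 35.6, 37.1 and 35.0 CPM in WT livers 1 to 5 and at 37.7, 42.4, 64.5, 39.01 and 39.3 CPM in KO livers 1 to 5 on WD. It was the only receptor whose KO and WT livers did not overlap on WD, as held for 2.22% of all genes, and KO liver 3 lay far above the rest. The log2 difference was 0.31 (SE 0.14, adjusted p = 0.452 from edgeR), and the exact two-sided permutation p was 0.00794, the smallest that 5 against 5 livers allow. *Nr1h4*, the other receptor with an unadjusted p below 0.05, was at 133 ± 11.96 CPM with AAV-TBG-GFP and 157 ± 16.5 CPM with AAV-TBG-Cre (SD, n = 5 each), a log2 difference of 0.24 (SE 0.094, adjusted p = 0.414 from edgeR).

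The other receptors overlapped between KO and WT livers on WD. *Ppara* was at 953 ± 162 CPM with AAV-TBG-GFP and 890.3 ± 142 CPM with AAV-TBG-Cre (SD, n = 5 each), a log2 difference of -0.098 (SE 0.14, adjusted p = 0.846 from edgeR). *Hnf4a* was at 717 ± 167 and 886 ± 78.0 CPM (SD, n = 5 each), a log2 difference of 0.31 (SE 0.15, adjusted p = 0.492 from edgeR). The log2 difference was 0.11 (SE 0.12) for *Ppard*, 0.10 (SE 0.088) for *Rxra*, 0.10 (SE 0.11) for *Nr1i2*, 0.056 (SE 0.20) for *Nr1i3* and 0.18 (SE 0.13) for *Nr5a2*. *Nr0b2* had the widest error, with -0.30 (SE 0.43).

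On CDA-HFD 4 receptors rose in KO livers, *Nr1i3*, *Hnf4a*, *Esrra* and *Nr1i2*, and 0 fell. Of all 17204 genes tested, 8.19% passed higher and 7.29% lower. The median log2 difference of the 10 receptors was 0.63, beside 0.0050 over all genes, and 9 of the 10 lay above 0. Without KO liver 5 the receptors that rose were 8, all but *Ppard* and *Nr0b2*, in a fit where 19.6% of all 17411 genes passed higher and 21.8% lower, and without WT liver 3, KO liver 1 or KO liver 3 they were 2. *Hnf4a* and *Nr1i2* passed whichever of the 10 livers was left out. The summed hepatocyte markers moved with these receptors, and their part in the differences was not tested. In bulk RNA, fewer hepatocytes and less receptor RNA per hepatocyte cannot be told apart.

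*Nr1i2*, which encodes PXR, was at 52.9, 66.2, 59.2, 71.3 and 56.8 CPM in WT livers 1 to 5 and at 105, 92.7, 111, 78.1 and 82.3 CPM in KO livers 1 to 5 on CDA-HFD. Every KO liver, KO liver 5 included, lay above every WT liver. It was the only receptor of the 10 without overlap, beside 9.5% of all genes. Its log2 difference was 0.61 (SE 0.12, adjusted p = 0.0142 from edgeR).

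*Hnf4a*, the hepatocyte identity factor, was at 349.5, 484, 402, 552 and 390.5 CPM in WT and at 878, 792, 923, 777 and 544 CPM in KO livers on CDA-HFD. KO liver 5 lay just below WT liver 4, and the other KO livers lay above all WT livers. *Hnf4a* differed by 0.84 (SE 0.17, adjusted p = 0.0154 from edgeR) on the log2 scale.

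*Nr1i3*, which encodes CAR, was at 64.1, 100.3, 74.2, 103 and 55.7 CPM in WT and at 167, 150.3, 216, 205 and 93.7 CPM in KO livers on CDA-HFD. KO liver 5 lay within the WT range and the other KO livers above it. On the log2 scale *Nr1i3* differed by 1.06 (SE 0.24, adjusted p = 0.0191 from edgeR), the largest of the 10, and the call was lost without WT liver 3, KO liver 1 or KO liver 3. *Tomm40l*, which shares most of its exon bases and was named after its values were seen, had a log2 difference of 1.05 (SE 0.23, adjusted p = 0.0191 from edgeR), so the counts do not tell from which of these genes the reads came.

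*Esrra* was at 35.2, 26.9, 30.3, 28.3 and 21.3 CPM in WT and at 46.3, 56.3, 52.3, 38.3 and 35.0 CPM in KO livers on CDA-HFD. WT liver 1 lay just above KO liver 5, and the groups were otherwise apart. *Esrra* differed by 0.68 (SE 0.16, adjusted p = 0.0219 from edgeR) on the log2 scale. The call was lost without WT liver 3 or 5, without KO liver 1, 2 or 3, and with library size alone (adjusted p = 0.0898 from edgeR).

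*Ppara* did not pass on CDA-HFD. It was at 232, 441, 311, 403 and 323 CPM in WT and at 573, 534, 607, 529 and 287 CPM in KO livers. KO livers 1 to 4 lay above every WT liver, whereas KO liver 5 lay above WT liver 1 only. The log2 difference was 0.56 (SE 0.22, adjusted p = 0.0977 from edgeR) with all livers and 0.71 (SE 0.17, adjusted p = 0.00636 from edgeR) without KO liver 5, and it also passed in 1 fit of all 20 livers (adjusted p = 0.0373 from edgeR).

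*Rxra*, its dimer partner, was at 361, 455, 396, 541 and 338 CPM in WT and at 675, 644, 703, 613 and 421 CPM in KO livers on CDA-HFD, and KO liver 5 was again the only KO liver within the WT range. For *Rxra* the log2 difference was 0.54 (SE 0.17, adjusted p = 0.0524 from edgeR), and 0.65 (SE 0.14, adjusted p = 0.00452 from edgeR) without KO liver 5. *Nr1h4*, the bile acid receptor FXR, ran over 60.4 to 112 CPM with AAV-TBG-GFP and 76.5 to 171 CPM with AAV-TBG-Cre, a log2 difference of 0.68 (SE 0.22, adjusted p = 0.0604 from edgeR). *Nr5a2*, which encodes LRH-1, ran over 50.7 to 68.4 and 58.1 to 98.1 CPM, a log2 difference of 0.39 (SE 0.13, adjusted p = 0.0647 from edgeR). Without KO liver 5 both rose, with 0.83 (SE 0.17, adjusted p = 0.00319 from edgeR) for *Nr1h4* and 0.49 (SE 0.096, adjusted p = 0.00244 from edgeR) for *Nr5a2*. *Rxra* and *Nr1h4* also passed without WT liver 4, in DESeq2, under the replicate block and in 1 fit of all 20 livers, *Rxra* also with RLE factors, and *Nr5a2* in DESeq2 and the 1 fit.

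*Nr0b2*, which encodes the repressor SHP, was at 9.68, 18.0, 10.2, 11.9 and 12.002 CPM in WT and at 7.28, 33.9, 19.9, 31.7 and 4.57 CPM in KO livers on CDA-HFD. KO livers 1 and 5 lay below all WT livers and KO livers 2, 3 and 4 above all of them. For *Nr0b2* the log2 difference was 0.65 (SE 0.47, adjusted p = 0.341 from edgeR). *Ppard* was at 12.4 ± 1.65 CPM with AAV-TBG-GFP and 11.9 ± 1.34 CPM with AAV-TBG-Cre (SD, n = 5 each), a log2 difference of -0.063 (SE 0.13, adjusted p = 0.744 from edgeR).

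**Figure D2:**
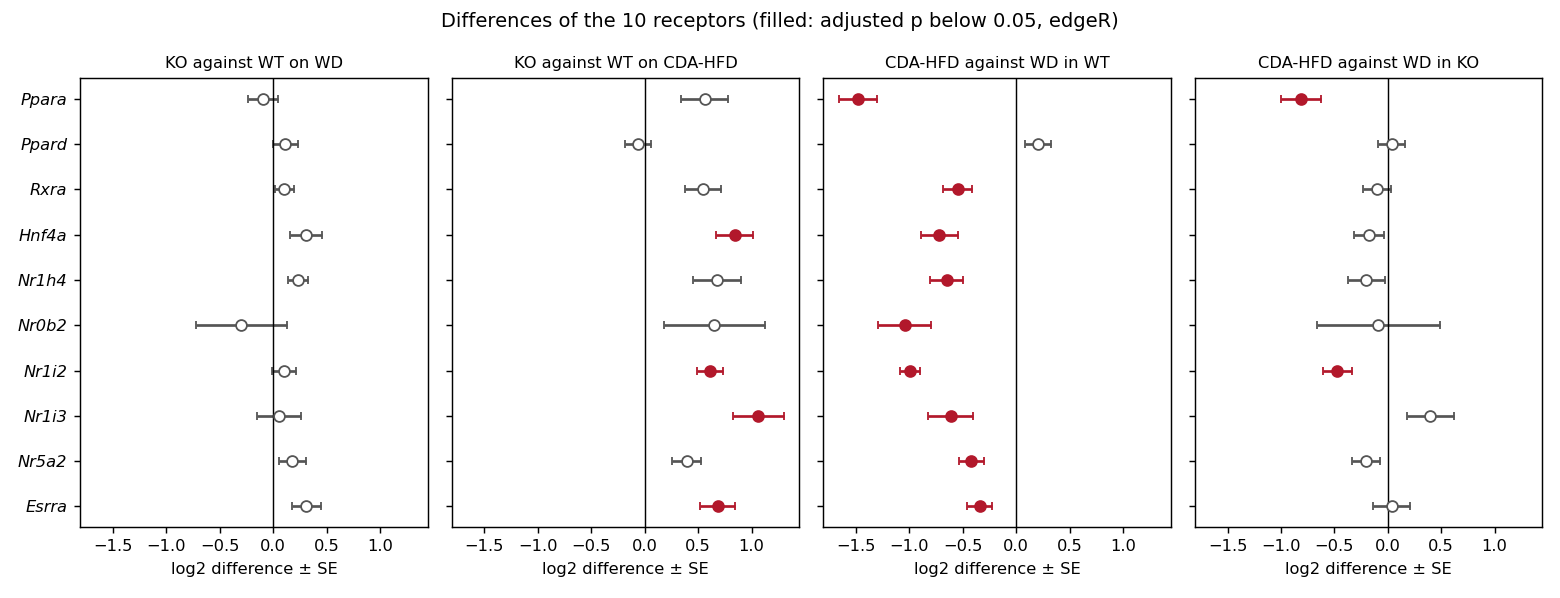
Log2 difference with its SE (x axis) of each receptor in the 4 comparisons of 5 against 5 livers, filled where the adjusted p was below 0.05. On WD 0 of 10 passed, on CDA-HFD 4 rose in KO livers, and from WD to CDA-HFD 9 fell in WT and 2 in KO livers, of which *Nr5a2* and *Esrra* in WT livers turned upward when scaled by library size alone.

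CDA-HFD was then set against WD within each vector, so these comparisons use the same livers as those above. In WT livers 9 of the 10 receptors fell and *Ppard* did not pass, where 25.9% of all 16726 genes tested passed higher and 25.2% lower. Scaling by library size alone turned 2 of the 9 upward, *Nr5a2* to 0.0085 and *Esrra* to 0.088 on the log2 scale. That scaling moved the median of all genes to 0.42 and the passing genes from 4335 higher and 4207 lower to 9120 and 1570, and under it 4 receptors passed, *Ppara*, *Nr0b2* and *Nr1i2* lower and *Ppard* higher. The median log2 difference of the 10 receptors was -0.63, beside -0.0032 over all genes.

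*Ppara* fell most in WT livers. It was at 768, 829.5, 1094, 1141 and 930.4 CPM on WD and at 232 to 441 CPM on CDA-HFD, far apart. This was a log2 difference of -1.48 (SE 0.18, adjusted p = 6.88e-05 from edgeR). *Nr1i2* ran over 105 to 130.2 CPM on WD and 52.9 to 71.3 CPM on CDA-HFD, a log2 difference of -0.99 (SE 0.096, adjusted p = 2.06e-05 from edgeR). *Rxra* (-0.55, SE 0.13) and *Nr1h4* (-0.65, SE 0.16) did not overlap between the diets either, which makes 4 of the 10, beside 37.2% of all genes.

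The other receptors that fell in WT livers left some overlap. *Hnf4a* went from 717 ± 167 to 436 ± 81.4 CPM (SD, n = 5 each), a log2 difference of -0.72 (SE 0.17, adjusted p = 0.00474 from edgeR), and WT liver 4 on CDA-HFD lay above WT liver 1 on WD. *Nr0b2* went from 25.4 ± 9.47 to 12.3 ± 3.31 CPM (SD, n = 5 each), a log2 difference of -1.05 (SE 0.25, adjusted p = 0.00450 from edgeR). The log2 difference was -0.61 (SE 0.21) for *Nr1i3*, -0.42 (SE 0.12) for *Nr5a2* and -0.34 (SE 0.11) for *Esrra*. *Nr1i3* passed with 4 and *Esrra* with 6 of 10 single livers left out, and the other 7 passed each time. In 1 fit of all 20 livers *Nr0b2* (adjusted p = 0.0845 from edgeR) and *Esrra* lost their calls, which left 7. *Ppard* went from 10.8 ± 1.23 to 12.4 ± 1.65 CPM (SD, n = 5 each), a log2 difference of 0.20 (SE 0.12, adjusted p = 0.183 from edgeR).

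In KO livers 2 receptors fell from WD to CDA-HFD, *Ppara* and *Nr1i2*, and 0 rose, where 9.19% of all 16387 genes tested passed higher and 7.85% lower. *Ppara* was at 798, 822, 755, 984 and 1092 CPM on WD and at 287 to 607 CPM on CDA-HFD, a log2 difference of -0.81 (SE 0.19, adjusted p = 0.0157 from edgeR). *Nr1i2* was at 114, 119, 154, 113 and 153 CPM on WD and at 78.1 to 111 CPM on CDA-HFD, a log2 difference of -0.47 (SE 0.13, adjusted p = 0.0335 from edgeR). Neither overlapped between the diets, as held for 15.2% of all genes. *Ppara* passed whichever liver was left out. Without KO liver 5 on CDA-HFD 2 receptors fell, *Ppara* and *Nr1i2*, where 9.03% of all genes passed higher and 8.37% lower. *Nr1i2* was lost without KO liver 2, 3 or 5 on WD or KO liver 2 or 4 on CDA-HFD, which left 1 receptor. Under the replicate block *Nr1i2* alone passed. With library size alone the passing genes went from 1506 higher and 1286 lower to 3371 and 553, and *Nr1i3* passed higher in place of *Nr1i2* lower.

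The other 8 receptors overlapped between the diets in KO livers. The log2 difference was -0.10 (SE 0.13) for *Rxra*, -0.18 (SE 0.14) for *Hnf4a*, -0.20 (SE 0.17) for *Nr1h4*, -0.087 (SE 0.58) for *Nr0b2* and -0.20 (SE 0.13) for *Nr5a2*, and each of these lay above 0 with library size alone. *Nr1i3* was at 94.4, 109.6, 107, 149 and 171 CPM on WD and at 93.7 to 216 CPM on CDA-HFD, a log2 difference of 0.40 (SE 0.22, adjusted p = 0.225 from edgeR). *Ppard* (0.038, SE 0.13) and *Esrra* (0.036, SE 0.17) were near 0. The median of the 10 receptors was -0.14, beside 0.0033 over all genes.

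Whether the effect of *Cideb* loss differed between the diets was tested as an interaction on all 20 livers. None of the 10 receptors passed in edgeR and DESeq2 called 0, where 0.331% of all 17804 genes tested passed upward and 0.225% downward. An unadjusted p below 0.05 was reached by 2736 of all genes and by 5 of the receptors. The 5 were *Ppara* with 0.67 (SE 0.27, adjusted p = 0.249 from edgeR), *Rxra* with 0.45 (SE 0.19), *Hnf4a* with 0.55 (SE 0.23), *Nr1i2* with 0.52 (SE 0.17) and *Nr1i3* with 1.02 (SE 0.33), on the log2 scale. The same 5 passed without KO liver 5, in a fit where 6.17% of all 17995 genes passed upward and 5.71% downward, and 0 passed with any other single liver left out. In that fit *Ppara* had 0.81 (SE 0.22, adjusted p = 0.0254 from edgeR) and *Nr1i3* 1.16 (SE 0.30, adjusted p = 0.0185 from edgeR).

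The makeup of the receptor RNA differed between the diets. Summed over the 10 receptors, the level was 688 ± 102 CPM per kb in WT and 729.6 ± 70.3 CPM per kb in KO livers on WD, and 365 ± 69.8 and 583 ± 121 CPM per kb on CDA-HFD (SD, n = 5 each). *Ppara* made up 36.0% of this sum in WT livers on WD (34.3% to 38.7%) and 24.3% on CDA-HFD (21.1% to 26.9%). In KO livers its share was 31.7% on WD (29.5% to 35.0%) and 22.4% on CDA-HFD (19.9% to 23.8%), so the diets did not overlap within either vector. Such shares do not depend on how libraries are scaled. *Hnf4a* made up 21.4% on WD and 24.8% on CDA-HFD in WT livers, and 25.2% and 28.0% in KO livers. *Rxra* made up 16.4% and 21.0% in WT livers, and 16.5% and 19.3% in KO livers. Shares of a sum are tied to each other, so a share can rise while the level falls. In WT livers the levels of *Hnf4a* and *Rxra* fell from WD to CDA-HFD.

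**Figure D3:**
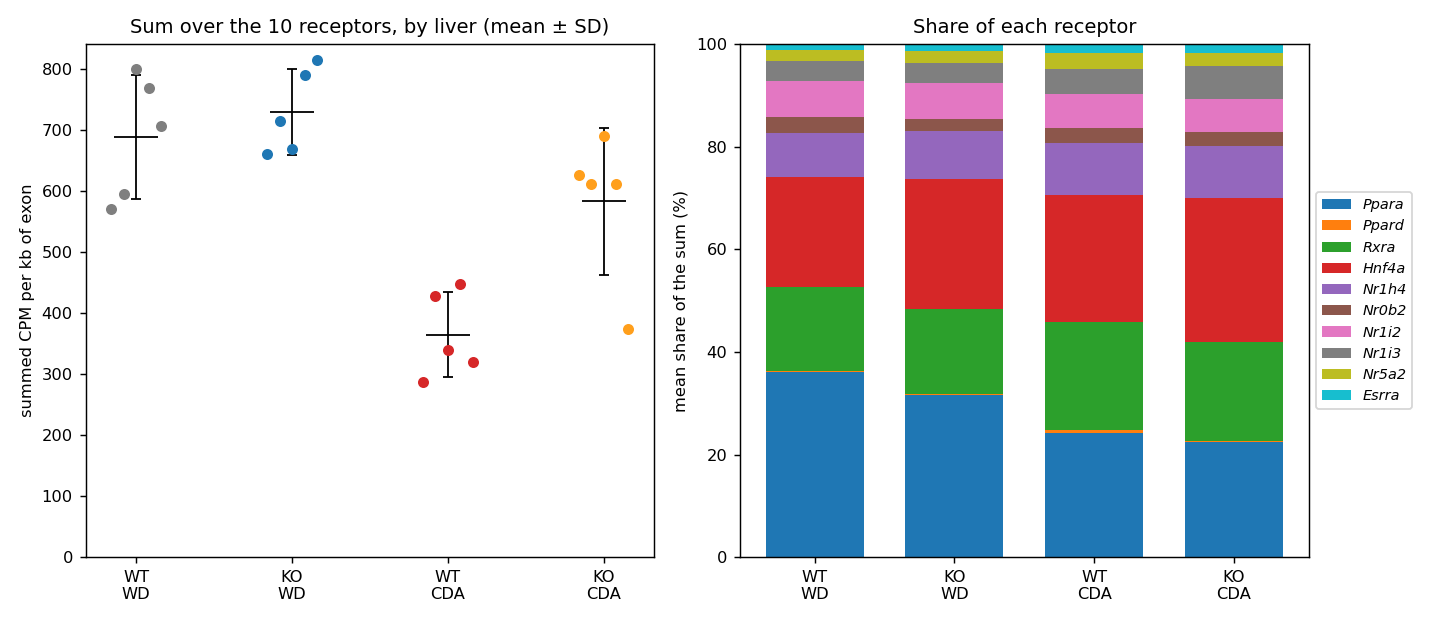
Summed level of the 10 receptors in CPM per kb of exon by liver, with mean and SD (left), and mean share of each receptor in that sum in percent for each group (right). The *Ppara* share was 36.0% and 31.7% on WD and 24.3% and 22.4% on CDA-HFD in WT and KO livers.

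Markers of hepatocytes and of other liver cells moved between the groups as well. Of the 14 hepatocyte markers, 4 rose in KO livers on CDA-HFD (10 without KO liver 5, beside 8.19% and 19.6% of all genes). From WD to CDA-HFD 10 fell in WT and 3 in KO livers, beside 25.2% and 7.85% of all genes. Among 15 macrophage markers 9 rose and 2 fell from WD to CDA-HFD in WT livers, beside 25.9% and 25.2% of all genes. Their sum ran over 539 to 1658 CPM in WT livers on WD, 2133 to 4232 CPM in WT and 813 to 2482 CPM in KO livers on CDA-HFD. The sum of 14 stellate cell markers ran over 783 to 1452, 2672 to 4350.4 and 1541 to 4492 CPM, and that of 10 cholangiocyte markers over 45.0 to 183, 393 to 840.4 and 87.5 to 675 CPM in the same groups. The 12 endothelial markers summed to 1073 to 1171, 857 to 974 and 836 to 1207 CPM and the 14 lymphocyte markers, with *Trac* at 0, to 34.8 to 91.5, 113 to 159.7 and 53.2 to 131 CPM. Without KO liver 5, set apart for lying with the WT livers, none of these sums overlapped between KO and WT livers on CDA-HFD. This separation was in part fixed by that choice, and the share of all genes without overlap in this reduced set was not counted. The 4 other KO livers then ran over 75257 to 108010.0 CPM for hepatocyte, 813 to 1079 for macrophage, 1541 to 1723 for stellate cell, 87.5 to 197 for cholangiocyte, 1085 to 1207 for endothelial and 53.2 to 72.6 CPM for lymphocyte markers.

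In an addition chosen after seeing the data, each receptor was set against the mean log2 CPM of the 14 hepatocyte markers in the same liver. The markers *Ttr*, *Apoa1*, *Apoc3*, *Serpina1a*, *Tat* and *Otc* are also on the list of HNF4α targets used below. The mean is therefore not independent of these targets, and the relative values are no measure of receptor RNA per hepatocyte. That mean differed by 0.67 between KO and WT livers on CDA-HFD, and by -0.88 in WT and -0.36 in KO livers between the diets. Relative to it, *Ppara* differed between the diets by -0.61 in WT and -0.49 in KO livers, without overlap. *Ppard* differed by 1.08 in WT and *Nr1i3* by 0.73 in KO livers, also without overlap. *Nr1i2* differed by -0.11 in WT and -0.12 in KO livers, with overlap. Between KO and WT livers on CDA-HFD all 10 overlapped relative to the markers, with and without KO liver 5. With all livers the values were -0.11 for *Ppara*, -0.056 for *Nr1i2*, 0.18 for *Hnf4a*, 0.011 for *Esrra* and 0.38 for *Nr1i3*, and without KO liver 5 they were -0.13, -0.22, 0.090, -0.11 and 0.37 in the same order.

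**Figure D4:**
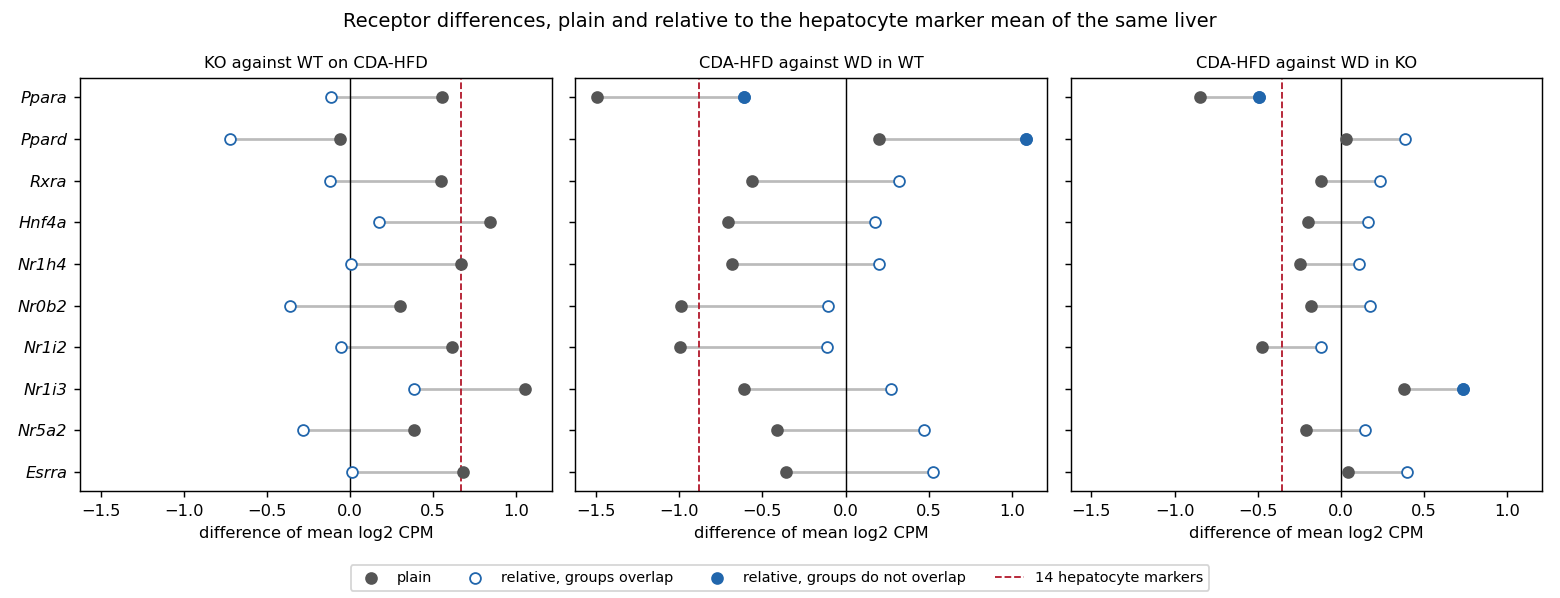
Difference of mean log2 CPM (x axis) of each receptor, plain and relative to the mean of 14 hepatocyte markers of the same liver (dashed line, the difference of that mean). From WD to CDA-HFD *Ppara* lay below 0 on both scales in WT and KO livers (-0.61 and -0.49 relative to the markers), whereas *Rxra*, *Hnf4a*, *Nr1h4* and *Nr5a2* changed sign.

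The genes whose pattern was most like that of *Ppara* were found by the root mean square difference in log2 CPM over all 20 livers, each gene centred on its own mean. The nearest of 6859 genes compared were *Gstk1* (0.0954), *Pm20d1* (0.134), *Hibadh* (0.141), *Pde3b* (0.146) and *Apoa2* (0.148). *Gstk1*, a glutathione transferase, was at 79.1 ± 14.9 and 78.8 ± 11.1 CPM in WT and KO livers on WD and at 26.9 ± 6.34 and 42.4 ± 10.6 CPM on CDA-HFD (SD, n = 5 each). *Hibadh* encodes an enzyme of valine breakdown, *Pde3b* a phosphodiesterase and *Apoa2* an apolipoprotein of HDL. Among the receptors *Nr1i2* was nearest to *Ppara* (0.334, rank 405), followed by *Nr1h4* (0.431), *Hnf4a* (0.432), *Rxra* (0.454) and *Nr5a2* (0.472), while *Nr1i3* (0.587), *Esrra* (0.641), *Nr0b2* (0.706) and *Ppard* (0.776) were further away.

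Targets of PPARα were read from a hand-made list of which 43 were tested. From WD to CDA-HFD 39 fell and 1 rose in WT livers, beside 25.2% of all genes lower and 25.9% higher. In KO livers 30 fell, beside 7.85% of all genes. *Cpt1a*, which admits fatty acids to mitochondria, fell by 0.66 on the log2 scale in WT livers (SE 0.14) and was at -0.14 in KO livers (SE 0.13). The largest falls were those of the acyl-CoA thioesterase *Acot1* in WT livers (-3.58, SE 0.38) and of the peroxisomal thiolase *Acaa1b* in KO livers (-2.29, SE 0.26), and the rise was that of *Cyp4a31* (1.18, SE 0.30). *Cyp4a14*, a fatty acid hydroxylase, had a log2 difference of -1.67 in WT (SE 0.55) and -2.28 in KO livers (SE 0.38). *Acot1*, *Acaa1b* and the *Cyp4a* genes have close copies, so their counts are uncertain.

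In KO livers on CDA-HFD 17 of the 43 PPARα targets rose and 0 fell, and without KO liver 5 31 rose and 1 fell, beside 19.6% of all genes higher and 21.8% lower in that fit (8.19% and 7.29% with all livers). *Acot1* had a log2 difference of 2.32 (SE 0.41, adjusted p = 0.0121 from edgeR). *Cyp4a14* was at 1.41 (SE 0.59, adjusted p = 0.113 from edgeR) and *Cpt1a* at 0.18 (SE 0.17, adjusted p = 0.453 from edgeR), which lay just below 0 with library size alone. Without KO liver 5 *Cyp4a14* was at 1.61 (SE 0.55, adjusted p = 0.0367 from edgeR). On WD 1 of 43 passed, *Retsat*, a retinol saturase, at 1.19 (SE 0.17, adjusted p = 0.0285 from edgeR). There 38 of the 43 lay above 0, with a median log2 difference of 0.24, beside 0.012 over all genes. An unadjusted p below 0.05, in either direction, was reached by 23 of them, beside 1702 of all 15848 genes. *Cpt1a* was among the 23 and went the other way, at -0.33 (SE 0.093, adjusted p = 0.259 from edgeR). For 10 of the 43 targets KO and WT livers did not overlap, as held for 2.22% of all genes. *Cyp4a14* was at 2.03 (SE 0.34, adjusted p = 0.0680 from edgeR) on WD, with groups that did not overlap.

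Of 15 FXR and SHP targets tested, among them *Nr0b2* itself, 10 fell from WD to CDA-HFD in WT livers and 1 rose. The list joins genes that FXR induces with bile acid synthesis genes that SHP represses, so these counts give no direction of FXR activity. Over all genes 25.2% passed lower and 25.9% higher. *Slc27a5*, the bile acid CoA ligase, fell by 1.64 (SE 0.27), *Cyp8b1*, the sterol 12α-hydroxylase, by 1.37 (SE 0.49) and *Abcb11*, the bile salt export pump, by 0.68 (SE 0.15), while *Osgin1* was at 0.97 (SE 0.18). In KO livers 1 fell, *Slc27a5* (-1.04, SE 0.19), and 1 rose, *Osgin1* (1.74, SE 0.34), beside 7.85% and 9.19% of all genes. In KO against WT livers on CDA-HFD 2 of 15 rose, beside 8.19% of all genes. They were *Cyp27a1* of the alternative bile acid pathway (0.84, SE 0.16) and *Abcb11* (0.61, SE 0.14). Without KO liver 5, 11 of 16 rose and 1 fell, where 19.6% of all genes passed higher and 21.8% lower. *Cyp7a1*, the rate-limiting enzyme of the classical pathway, was at 0.43 (SE 0.44, adjusted p = 0.508 from edgeR) and *Cyp8b1* at 1.36 (SE 0.67, adjusted p = 0.170 from edgeR). Without KO liver 5 *Cyp8b1* was at 1.64 (SE 0.53, adjusted p = 0.0288 from edgeR).

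Of 30 PXR and CAR targets tested, 19 fell and 1 rose from WD to CDA-HFD in WT livers, beside 25.2% and 25.9% of all genes. The one that rose was the efflux pump *Abcb1a* (0.57, SE 0.14). In KO livers 5 fell and 1 rose, beside 7.85% and 9.19% of all genes, and *Gsta1*, the one that rose, was named after its values were seen (2.58, SE 0.59). *Cyp2b10*, the classical CAR target, had 50, 66, 336, 131 and 52 reads in WT and 143, 66, 115, 20 and 124 reads in KO livers 1 to 5 on WD, and 0, 0, 1, 1 and 1 and 13, 0, 7, 1 and 2 reads on CDA-HFD, so it was near 0 on this diet in both vector groups. *Cyp3a11*, the classical PXR target, was at 2238 ± 373 CPM with AAV-TBG-GFP and 3621 ± 458 CPM with AAV-TBG-Cre on WD (SD, n = 5 each), without overlap, a log2 difference of 0.69 (SE 0.14, adjusted p = 0.140 from edgeR). On CDA-HFD its log2 difference was 0.032 (SE 0.24, adjusted p = 0.937 from edgeR), which turned to -0.16 with library size alone. In KO against WT livers on CDA-HFD 9 of 29 targets rose and 0 fell, led by *Cyp2b9* (2.65, SE 0.64), which has close copies. Over all genes 8.19% passed higher and 7.29% lower. Without KO liver 5, 18 of 29 rose and 1 fell, beside 19.6% and 21.8% of all genes. *Abcc3*, an efflux pump of this list, was the one target that passed the interaction, at 0.70 (SE 0.16, adjusted p = 0.0475 from edgeR).

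Of 23 HNF4α targets tested, 17 fell from WD to CDA-HFD in WT livers, beside 25.2% of all genes. *Pklr*, the liver pyruvate kinase, led them (-2.63, SE 0.25). In KO livers 5 fell, led by *Pklr* (-2.07, SE 0.26), and 1 rose, the clotting factor *F11* (1.03, SE 0.27), beside 7.85% and 9.19% of all genes. In KO against WT livers on CDA-HFD 2 rose, among them *Apoc3*, an apolipoprotein that is also among the hepatocyte markers and was named after its values were seen (0.86, SE 0.25), and 15 rose without KO liver 5, where 19.6% of all genes did (8.19% with all livers). Of 24 ERRα targets, genes of the citric acid cycle and the respiratory chain, 23 fell from WD to CDA-HFD in WT livers, beside 25.2% of all genes. The succinate dehydrogenase subunit *Sdha* led them (-1.004, SE 0.11). In KO livers 12 fell, led by *Sdhb* (-0.73, SE 0.15), and 1 rose, *Idh3a* (0.52, SE 0.14), beside 7.85% and 9.19% of all genes. In KO against WT livers on CDA-HFD 8 rose, led by *Etfb*, an electron transfer flavoprotein (0.62, SE 0.17), and 23 without KO liver 5, beside the same 19.6% of all genes.

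**Figure D5:**
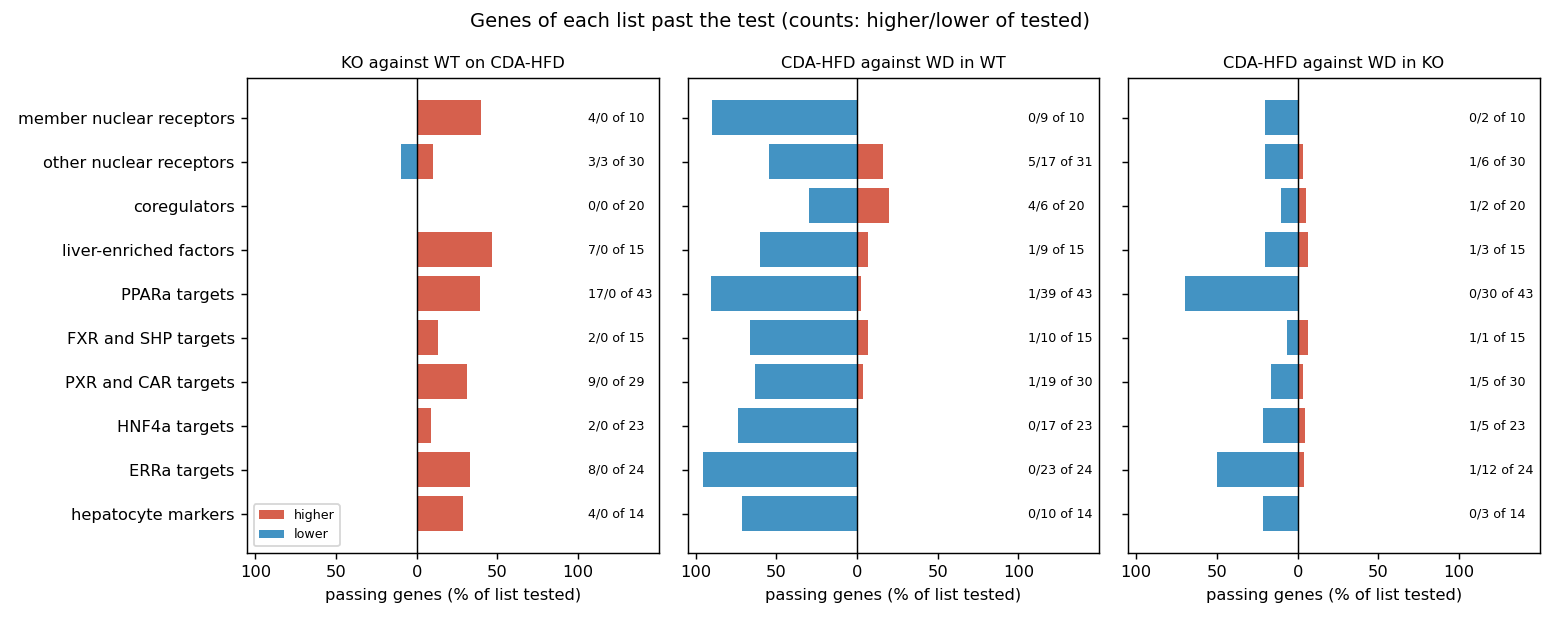
Share of each list's tested genes (x axis, percent) that passed higher (right) or lower (left) in 3 comparisons, with counts beside the bars. In WT livers 9 of 10 receptors (of which *Nr5a2* and *Esrra* turned upward with library size alone) and 39 of 43 PPARα targets fell from WD to CDA-HFD, and in KO livers 2 of 10 and 30 of 43. Over all genes 25.2% fell in WT and 7.85% in KO livers.

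Of 20 coregulators, 0 passed in edgeR in KO against WT livers on CDA-HFD, and DESeq2 called 2, beside 4141 of all 17204 genes. An unadjusted p below 0.05 was reached by 4 of the 20, beside 6076 of all 17204 genes. Without KO liver 5, 4 rose, beside 19.6% of all genes. From WD to CDA-HFD 4 rose and 6 fell in WT livers, beside 25.9% of all genes higher and 25.2% lower. *Lpin1*, a coactivator of PPARα and a phosphatidate phosphatase, was at -1.96 (SE 0.37) there and *Pprc1*, of the PGC-1 family, at 0.49 (SE 0.18). In KO livers *Ppargc1b* fell by 1.002 (SE 0.16). *Ppargc1a*, the coactivator PGC-1α, was at -0.071 (SE 0.23, adjusted p = 0.847 from edgeR) between KO and WT livers on CDA-HFD.

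Of 30 other nuclear receptors tested on CDA-HFD, 3 rose and 3 fell in KO livers, where 8.19% of all genes passed higher and 7.29% lower. Their median log2 difference was 0.11, beside 0.63 for the 10 receptors. Without KO liver 5, 8 rose and 6 fell, beside 19.6% and 21.8% of all genes. *Nr4a1*, an immediate early gene, fell most (-1.13, SE 0.22). *Pparg*, the lipid storage member of the PPAR family, was at -0.59 (SE 0.11, adjusted p = 0.0137 from edgeR) in KO livers on CDA-HFD, beside 0.56 for *Ppara*. *Rara* (0.63, SE 0.13) and *Nr4a3* (-0.997, SE 0.22), named after their values were seen, also passed. *Nr1h3*, which encodes LXRα, was at 0.40 (SE 0.16, adjusted p = 0.100 from edgeR) and *Rxrb*, the relative of *Rxra*, at 0.25 (SE 0.11, adjusted p = 0.135 from edgeR). Without KO liver 5 *Nr1h3* was at 0.52 (SE 0.11, adjusted p = 0.00395 from edgeR).

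From WD to CDA-HFD 17 of 31 other nuclear receptors tested fell and 5 rose in WT livers, beside 25.2% and 25.9% of all genes. Their median log2 difference was -0.33, beside -0.63 for the 10 receptors. In KO livers 6 of 30 fell and 1 rose, beside 7.85% and 9.19% of all genes. *Pparg* fell by 0.72 in WT (SE 0.15) and by 0.94 in KO livers (SE 0.20), and *Rarg*, a retinoic acid receptor, was at 0.83 (SE 0.12) in WT livers. Of 15 liver-enriched factors outside the nuclear receptors, 7 rose and 0 fell in KO livers on CDA-HFD, led by *Foxa2* (1.61, SE 0.23). Over all genes 8.19% passed higher and 7.29% lower. Without KO liver 5, 11 factors rose and 0 fell, beside 19.6% and 21.8% of all genes. From WD to CDA-HFD 9 fell and 1 rose in WT livers, beside 25.2% and 25.9% of all genes, with *Srebf1*, a factor for lipid synthesis genes, at -2.38 (SE 0.16). In KO livers *Srebf1* was at -2.03 (SE 0.27).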

How the data were processed

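Bulk RNA-seq of 20 livers was used, 5 in each of 4 groups of vector and diet taken from the labels. The authors deposited raw counts per gene, and the submitters' processing notes name the build mm10, while the aligner and counter are not given in the sources used here. The labels and the methods of the study name different library kits, so the use of strand is not known. The 5 rows that name no gene were left out of library sizes and tests. Of the reads on genes and in these rows together, no feature made up 20.7% to 28.8%. In the same total, not unique made up 18.0% to 28.7% and ambiguous 0.800% to 1.03%. With 11697049 to 16827147 reads on genes, counting error (100 divided by the root of the mean count) was 0.921% to 8.70% for the receptors, and it was close to the spread between livers for *Ppard* (8.46% beside a coefficient of variation of 10.7% in KO livers on WD) and above it for *Esrra* in WT livers on WD (4.77% beside 2.64%). Exon lengths and overlaps came from GENCODE gene models on GRCm38, and promoter windows from RefSeq.

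Each pair of groups was fitted with edgeR 4.0.16 (limma 3.58.1, R 4.3.3) on its own 10 livers, with filterByExpr, TMM factors, the quasi-likelihood F test and Benjamini-Hochberg adjustment over all genes tested, at 0.05. The interaction was fitted on all 20 livers. Single values were also tested by the exact two-sided permutation test (252 splits). Log2 CPM used a prior count of 2. Alternatives were DESeq2 1.42.0, RLE factors, library size alone, no filter, at least 10 counts in every library, a replicate block, 1 fit of all 20 livers, and each liver left out. The edgeR step was tested on simulated data. Figures used Python 3.11.15, pandas 2.3.3 and matplotlib 3.10.9.

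The receptors and the gene lists were chosen with earlier results of these data known. All 10 receptors are named. From each other list the text names the gene with the largest rise and fall among those that passed, if its log2 CPM averaged 2 or more, and a few textbook genes. A few genes picked in this way are not reported here. The study states that its data reflect several experiments and litters, but not which litter or day each liver came from, so p-values measure the spread between these samples, which may in part be technical.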

Additional observations from a re-analysis of the deposited data

Results flagged for a closer look

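In groups of 5 livers, a liver was picked out where its gap to the nearest other liver, divided by the range of the group, was above the 95% critical value of Dixon's test. This held in 13 of 184 groups of named genes, where chance at 5% gives about 9.2. Among the receptors, *Ppara* was low in KO liver 5 on CDA-HFD (286.6 CPM against 529 to 607 CPM, ratio 0.756), and *Esrra* was high in KO liver 3 on WD (64.5 against 37.7 to 42.4 CPM, ratio 0.824). *Nr0b2* was high in WT liver 2 on CDA-HFD (18.0 against 9.68 to 12.002 CPM, ratio 0.720), and *Nr5a2* was low in WT liver 1 on CDA-HFD (50.7 against 63.3 to 68.4 CPM, ratio 0.711).

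Among the other named genes, KO liver 5 on CDA-HFD was low for *Nr1h3* (63.2 CPM, ratio 0.725) and high for *Abcb1a* (40.0 CPM, ratio 0.866). WT liver 5 on CDA-HFD was low for *Abcb11* (287 CPM, ratio 0.726) and *Acaa1b* (222 CPM, ratio 0.788). In WT livers on WD, liver 3 was high for *Cyp7a1* (366 CPM, ratio 0.741) and *Lpin1* (1334 CPM, ratio 0.729), liver 4 for *Ppargc1b* (64.9 CPM, ratio 0.804) and liver 5 for *Pprc1* (38.5 CPM, ratio 0.713). In KO livers on WD, liver 3 was high for *Etfb* (299 CPM, ratio 0.785).

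The effect of *Cideb* loss on *Abcc3*, an efflux pump among the PXR and CAR targets, differed between the diets by 0.70 on the log2 scale (adjusted p = 0.0475 from edgeR).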

How the results depend on the processing

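In KO against WT livers on CDA-HFD, the receptors that passed were 4, with 3 with library size alone (*Esrra* lost), 5 with RLE factors, 6 under the replicate block, 7 in DESeq2 and 8 in 1 fit of all 20 livers, and 2 to 8 with single livers left out. From WD to CDA-HFD they were 9 in WT livers, 7 in 1 fit (*Nr0b2* and *Esrra* lost) and 4 with library size alone, and 2 in KO livers, with 1 under the replicate block and 1 to 2 with single livers left out. In the interaction they were 0, and 0 to 5 with single livers left out, the 5 without KO liver 5.

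Genes passing on WD were 12, with 162 in DESeq2, 38 without a filter, 26 in 1 fit of all 20 livers, 2 with the replicate block and 1 to 33 with single livers left out (33 without WT liver 3). On CDA-HFD they were 2664, with 4141 in DESeq2, 4170 in 1 fit and 1709 with library size alone (517 higher and 1192 lower), and 709 (without KO liver 1) to 7201 (without KO liver 5) with single livers left out. Between the diets in KO livers they were 2792, with 4476 in 1 fit and 1568 to 2881 with single livers left out. In the interaction they were 99, with 427 in DESeq2, 44 with library size alone, 52 without a filter and 63 with the replicate block, and 35 (without KO liver 3 on CDA-HFD) to 2138 (without KO liver 5 on CDA-HFD) with single livers left out. Library size alone moved the median of all genes by 0.42 between the diets in WT and 0.25 in KO livers, and by -0.19 between KO and WT livers on CDA-HFD.

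With library size alone these log2 values changed sign: *Cyp3a11* (-0.16) and *Cpt1a* (-0.012) in KO livers on CDA-HFD, *Nr5a2* (0.0085), *Esrra* (0.088) and *Nr1h3* (0.021) between the diets in WT livers, and *Rxra* (0.13), *Hnf4a* (0.055), *Nr1h4* (0.011), *Nr0b2* (0.13) and *Nr5a2* (0.031) in KO livers. With single livers left out the ranges that crossed 0 were those of *Nr1i3* on WD (-0.086 to 0.14), *Cyp3a11* (-0.11 to 0.21) and *Ppargc1a* (-0.23 to 0.080) on CDA-HFD, and *Esrra* (-0.050 to 0.21), *Ppard* (-0.027 to 0.094) and *Nr0b2* (-0.39 to 0.46) between the diets in KO livers. Relative to the hepatocyte marker mean, chosen after seeing the data, the sign changed on WD for *Ppard* (-0.027), *Rxra* (-0.035), *Nr1i2* (-0.050) and *Nr1i3* (-0.076), and on CDA-HFD for *Ppara* (-0.11), *Rxra* (-0.12), *Nr0b2* (-0.36), *Nr1i2* (-0.056) and *Nr5a2* (-0.28). It also changed between the diets in WT livers for *Rxra* (0.32), *Hnf4a* (0.18), *Nr1h4* (0.20), *Nr1i3* (0.27), *Nr5a2* (0.47) and *Esrra* (0.53), and in KO livers for *Rxra* (0.23), *Hnf4a* (0.16), *Nr1h4* (0.11), *Nr0b2* (0.18) and *Nr5a2* (0.14). The cause of these changes was not tested.

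Residuals of same-numbered livers correlated from -0.269 to 0.284 on WD and from -0.367 to 0.347 on CDA-HFD. Between the diets they correlated from -0.146 to 0.334 in WT and from -0.175 to 0.350 in KO livers. Livers numbered 4 correlated positively and livers numbered 3 negatively in every comparison. Differently numbered livers were not compared, so whether replicate numbers mark pairs or a shared batch was not settled. With the replicate block 6 receptors passed on CDA-HFD, 9 between the diets in WT and 1 in KO livers, and 0 on WD and in the interaction. Of the log2 values of the receptors, 552 of 600 kept direction and side of the threshold with single livers left out, and 312 of 340 under the other settings.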
